A study of Gallus gallus with 2 samples.

Results

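Chromosomes 11, 12 and 13 are the largest of the chicken microchromosomes, the small gene-dense chromosomes that accompany a few much larger macrochromosomes. Every listed CTCF peak whose sequence name was chromosome 11, 12 or 13 was taken, without regard to its score. This gave 445 of the 5830 peaks in the 5 day list and 1369 of the 21358 in the 10 day list, 1814 of 27188 in all. The lists come from chromatin of red blood cells labelled 5 day old and 10 day old, immunoprecipitated with a CTCF antibody and sequenced, with 1 library at each age. The labels give no strain, do not place the ages before or after hatching, and name red blood cells as the cell type while their culture fields describe stimulated mononuclear blood cells. Peak lists carry no expression values, so the labelled cell type could not be checked against marker genes.

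CTCF recognises a long DNA motif through its zinc fingers. It marks insulators, which separate regulatory neighbourhoods, and it stops cohesin at the bases of many chromatin loops. Chicken red cells keep their nucleus, and the insulators of the chicken globin loci were among the first CTCF sites to be studied. CTCF sites tend to be more frequent where genes are dense. There is no input library here against which a listed position could be checked as an occupied site, and no gene, motif or sequence is given for any peak here because a genome of the matching build was not used.

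Each peak spans 399 bp, and positions are given with the first base of a sequence counted as 1, in the build of the deposited lists, which is not given in the sources used here. Score is the whole number the authors deposited for each peak. Its scale is unknown, so each score was ranked within its own list, as the percentage of the list that scored lower with ties split evenly. Read depth is unknown. As each age has a single library, the variation among birds or preparations is not measured and no test compares the ages. The 95% intervals below cover counting error within a list only and treat peaks as independent of each other. In 500 kb bins here, the variance of the counts was 3.96 times the mean at 5 days and 4.80 times at 10 days. Peaks were thus clustered, and the intervals on densities and their ratios are too narrow. A bound that lies close to equal density does not decide whether densities differ.

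CTCF peaks on these chromosomes were denser than on the next larger chromosomes, 6 to 10, at 5 days. They were less dense than on chromosomes 15 to 21, which are smaller microchromosomes, at both ages. The 5 day list held 7.27 peaks per Mb (exact Poisson interval 6.61 to 7.97) and the 10 day list 22.4 (21.2 to 23.6), over 61.2 Mb up to the last peak of either list. At 5 days this was 1.29 times the density of chromosomes 6 to 10 (exact conditional interval 1.14 to 1.44). At 10 days the ratio was 1.06, and its interval of 0.997 to 1.13 includes equal density. Whether the interval included equal density varied with the chromosomes and scores counted, so these values do not decide the question at 10 days. The cause was not tested. Without chromosome 11 the ratio was 1.11, and its interval of 1.03 to 1.20 narrowly left out equal density. Without chromosome 12 it was 1.07 (0.996 to 1.15) and without chromosome 13 it was 1.01 (0.934 to 1.08). Both of these intervals include equal density. In the 10 day list shortened to its 5830 highest scoring peaks the ratio was 1.14, and its interval of 1.01 to 1.29 also narrowly left out equal density. In the upper 50% of the scores it was 1.29 (1.18 to 1.41), above the main interval. Leaving out the tied score at that limit, a choice made after seeing the data, gave 1.12 (1.02 to 1.23). Against chromosomes 15 to 21 the ratio was 0.644 at 5 days (0.571 to 0.725) and 0.708 at 10 days (0.661 to 0.758).

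The comparison with chromosomes 6 to 10 was repeated for peaks found in both lists and for peaks of a single list. Peaks with an overlap of at least 1 bp in the other list are called shared, and the rest unmatched. Against chromosomes 6 to 10, the density of shared peaks was 1.19 times as high counted over 5 day positions (1.01 to 1.40) and 1.18 times over 10 day positions (1.003 to 1.38), which are nearly the same sites. Unmatched 5 day peaks were 1.40 times as dense (1.18 to 1.66). For unmatched 10 day peaks the ratio was 1.04 (0.972 to 1.12), an interval that again includes equal density.

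The densities of the 3 chromosomes lay close together. Chromosome 11 held 144 peaks at 5 days and 449 at 10 days, chromosome 12 held 154 and 448, and chromosome 13 held 147 and 472. In densities these were 6.57, 7.54 and 7.77 per Mb at 5 days and 20.5, 21.9 and 24.96 per Mb at 10 days. Among the 6 pairwise ratios at the 2 ages, the interval left out equal density for 1, chromosome 13 against chromosome 11 at 10 days (1.22, 1.07 to 1.39). The other 5 ratios lay between 1.03 and 1.18.

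**Figure D1:**
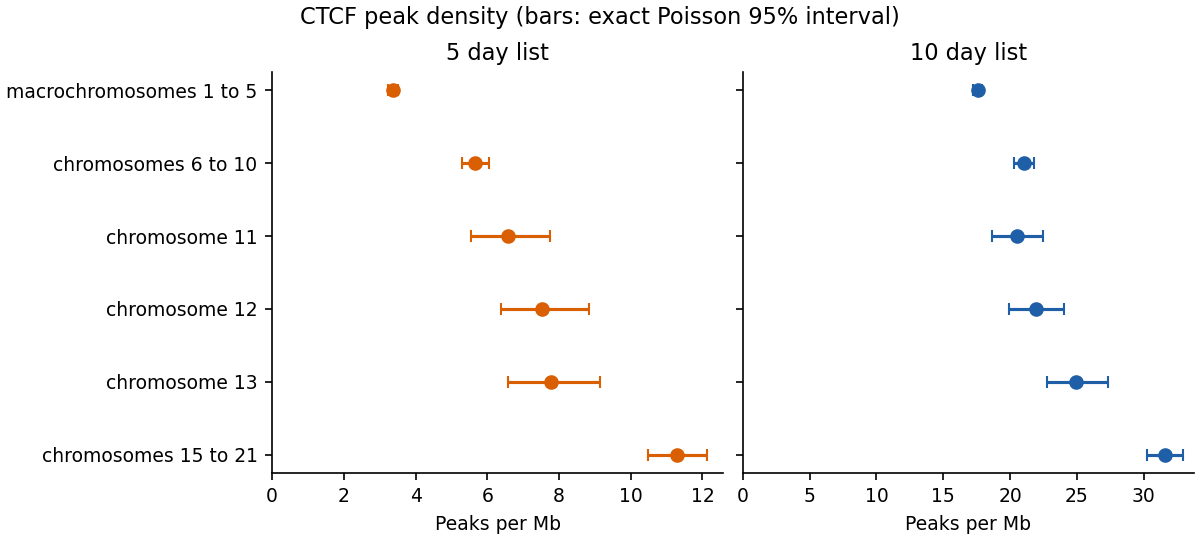
CTCF peaks per Mb (horizontal axes, a separate scale for each age) for chromosomes 11, 12 and 13 and for 3 groups of other chromosomes. Points are densities and bars exact Poisson 95% intervals. The 3 chromosomes lie between 6.57 and 7.77 per Mb at 5 days and between 20.5 and 24.96 at 10 days, below chromosomes 15 to 21 at both ages.

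The 10 day list was longer than the 5 day list by 3.08 times here (exact conditional interval 2.76 to 3.43). It was longer by 3.72 times on chromosomes 6 to 10 (3.45 to 4.02) and by 2.80 times on chromosomes 15 to 21 (2.57 to 3.04). The separate ratios were 3.12 on chromosome 11, 2.91 on chromosome 12 and 3.21 on chromosome 13. When the 10 day list was shortened to its 5830 highest scoring peaks, the ratio on these chromosomes became 0.861 (0.749 to 0.989), where the whole lists are equal in length by construction.

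Of the 445 peaks at 5 days, 229 were overlapped at 10 days, a share of 51.5% (Clopper-Pearson interval 46.7 to 56.2). The share was 57.6% over the whole list and 55.9% over assigned chromosomes, so the recovery here was slightly lower. The whole-list value lies just above the interval, and the value over assigned chromosomes lies inside it. On chromosomes 6 to 10 the share was 55.6%, and on chromosomes 15 to 21 it was 55.8%. Of the 1369 peaks at 10 days, 228 were overlapped at 5 days, a share of 16.7% (14.7 to 18.7). The share was 15.8% over the whole list, inside the interval, and 14.2% over assigned chromosomes, just below the interval. The 5 day shares were 50.0% on chromosome 11, 52.6% on chromosome 12 and 51.7% on chromosome 13. The 10 day shares were 15.6%, 18.3% and 16.1% in the same order. All 3 intervals overlapped at each age.

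Shared sites coincided closely in position. There were 225 pairs in which each peak was the nearest to the other, 70 on chromosome 11, 80 on chromosome 12 and 75 on chromosome 13. The median distance between their starts was 39 bp (interquartile range 17 to 71), and overlapping peaks cannot start 399 bp or more apart. In 136 pairs the distance was at most 50 bp, in 7 it was over 200 bp, and in 3 the starts were identical. The 10 day peak started at the higher coordinate in 109 pairs and at the lower in 113, so there was no common shift in one direction.

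Scores on these chromosomes ran much as in the lists as a whole. The median score was 23 at 5 days (interquartile range 15 to 36) and 25 at 10 days (23 to 29), and the median member ranked above 51.5% and 51.0% of its list. In the highest scoring 10% of each list, ties at the limit aside, lay 45 of the 5 day members (10.1%, against 9.74% of the whole list) and 135 of the 10 day members (9.86%, against 10% of the whole list). At the lowest score of each list stood 49 members at 5 days (11%, whole list 11.3%) and 265 at 10 days (19.4%, whole list 19.3%). These shares were close to those of the whole lists.

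Shared peaks ranked higher than unmatched ones at both ages. At 5 days the median score was 33 for shared peaks (interquartile range 22 to 53) and 16 for the 216 unmatched ones (14 to 22.2). At 10 days it was 43 for shared peaks (29 to 70) and 24 for the 1141 unmatched ones (23 to 27). The highest unmatched score was 56 at 5 days and 55 at 10 days. All 45 of the 5 day members in the top 10% were shared, and 122 of the 135 at 10 days. Over all assigned chromosomes it was 427 of 449 and 1528 of 1764. Across the 225 pairs the scores of both ages had a Spearman correlation of 0.58, a description over sites that share their libraries. The 10 day peak held the higher rank within its own list in 181 pairs and the 5 day peak in 44. Shared peaks make up a smaller share of the longer list, and the median rank of the paired peaks was 91.4% at 10 days and 69.1% at 5 days.

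Recovery rose from the lowest to the highest scores. The whole lists were divided by rank into 5 parts of 20% each. At 5 days the share of members overlapped at 10 days went from 17.4% (16 of 92) in the lowest part through 27.0%, 42.9% and 75.0% to 95.5% (84 of 88) in the highest. All assigned chromosomes together were at 20.7%, 33.0%, 56.9%, 77.7% and 92.2% in the same order. The largest departure was in the middle part, with scores from 19 to 27, where the interval of the members ran from 32.1 to 54.1 and that of all assigned chromosomes from 53.9 to 59.9. At 10 days the shares were 3.40%, 3.38%, 6.74% and 9.92% in the 4 lower parts and 57.4% (163 of 284) in the highest, which began at a score of 31. The highest part over all assigned chromosomes was at 53.0%.

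**Figure D2:**
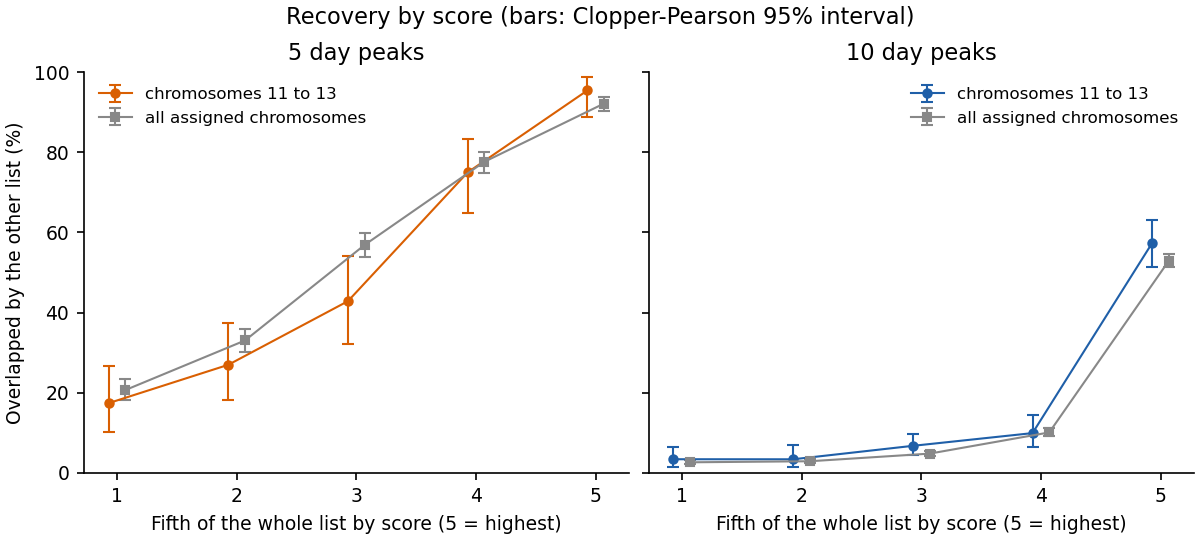
Share of peaks overlapped by the other list (vertical axis, percent) against the fifth of the whole list in which their score lies (horizontal axis), for chromosomes 11 to 13 in colour and all assigned chromosomes, which include them, in grey. Bars are Clopper-Pearson 95% intervals. The 5 day shares rise from 17.4% to 95.5%, and the 10 day shares stay under 10% until the highest part, at 57.4%.

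The strongest peaks were shared at all 3 chromosomes. On chromosome 11 the 3 highest sites were the same at both ages. The site at 3189204 to 3189602 scored 178 at 5 days and its 10 day partner, starting 9 bp away, 476. The site at 151 to 549, at the very start of the sequence, scored 136 at 5 days and 586 at 10 days. The site at 2687440 to 2687838 scored 113 at 5 days and 313 at 10 days. Each of these ranked among the 100 highest peaks of its whole list, from rank 31 to rank 87.

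Chromosome 13 carried the highest 5 day peak of the 3 chromosomes. It lay near the far end, at 18869456 to 18869854, with a score of 346, the rank of 11 in the 5 day list. The 10 day peak there, 19 bp away, scored 350 and ranked 59. The next 5 day peaks were at 12377414 to 12377812 (score 111, 10 day partner 72) and at 13086402 to 13086800 (score 108, 10 day partner 158). Next at 10 days came a pair of peaks tied at a score of 142. The first of them, at 562401 to 562799, was also the first peak of the chromosome, and its 5 day partner scored 36. It ranked above 99.2% of the list at 10 days and its partner above 73.0% at 5 days. The other, at 10664427 to 10664825, had a 5 day partner that scored 85 and ranked above 97.0%.

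Chromosome 12 had no peak as high as the highest of chromosome 11 or chromosome 13 at either age. Its highest 5 day peak, at 4810629 to 4811027, scored 91 and its 10 day partner 117. The next were at 14974273 to 14974671 (score 80, partner 83) and 20124477 to 20124875 (score 75, partner 84). At 10 days the highest peak was at 13917324 to 13917722, with a score of 150 and a 5 day partner of 71. The third 10 day peak, at 20254822 to 20255220, scored 113 and its 5 day partner, 224 bp away, 69.

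Unmatched peaks scored low as a group, and some stood near a peak of the other list. Of the 216 unmatched 5 day peaks, 24 had a 10 day peak starting within 1 kb and 109 within 10 kb (50.5%). The share within 10 kb was 45.4% over all assigned chromosomes, 44.3% on chromosomes 6 to 10 and 53.6% on chromosomes 15 to 21. Of the 1141 unmatched 10 day peaks, 19 had a 5 day peak within 1 kb and 170 within 10 kb (14.9%, against 11.2% over all assigned chromosomes). On chromosomes 6 to 10 this 10 day share was 12.5%, and on chromosomes 15 to 21 it was 22.1%. The lists differ in length, so a 5 day peak has more neighbours to meet than a 10 day peak.

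The highest unmatched 5 day peaks reached ranks of 78.3% to 89.4%. On chromosome 13 they lay at 13233238 to 13233636 (score 56) and 13554031 to 13554429 (score 42), with 10 day peaks that scored 24 starting 6460 and 2039 bp away. On chromosome 11 they lay at 20682082 to 20682480 (score 53) and 654916 to 655314 (score 41). On chromosome 12 they lay at 13692351 to 13692749 (score 52) and 10646866 to 10647264 (score 45). The nearest 10 day peak to these 4 started between 4125 and 28657 bp away.

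Among unmatched 10 day peaks the most remote of those named lay on chromosome 12. It spanned 13513460 to 13513858, scored 50 and had no 5 day peak starting within 178891 bp. The highest, at 2569946 to 2570344 on the same chromosome, scored 55, and a 5 day peak started 756 bp from it. On chromosome 11 the highest were at 9615586 to 9615984 (score 45) and 8038624 to 8039022 (score 44), 10193 and 80620 bp from the nearest 5 day peak. On chromosome 13 they were at 2789142 to 2789540 (score 44) and 17649588 to 17649986 (score 41), 21120 and 24984 bp away.

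Peaks were denser in the outer 3 Mb of the chromosomes than in the rest, most of all on chromosome 11. The limit of 3 Mb from either end was chosen after the values were seen. It takes in the stretch from 2500001 to 3000000, which held 18 peaks at 5 days on chromosome 11 and 18 on chromosome 12. On chromosome 11 the outer 3 Mb at each end make up 27.4% of the length and held 103 of the 144 peaks at 5 days (71.5%) and 218 of the 449 at 10 days (48.6%). The outer density was 17.2 per Mb and the inner density 2.58 at 5 days, a ratio of 6.66 (4.60 to 9.82). At 10 days it was 36.3 and 14.5 per Mb, a ratio of 2.50 (2.07 to 3.02). On chromosome 12 the ratios were 1.85 (1.33 to 2.58) and 1.46 (1.20 to 1.77), and on chromosome 13 they were 1.66 (1.18 to 2.33) and 1.49 (1.23 to 1.79). The 5 day ratio was the higher on each chromosome. Peaks were clustered, so these intervals are too narrow to decide whether the ratios differ between the ages. On chromosome 11 the outer counts take in the bin from 2500001 to 3000000 (18 peaks at 5 days, 8 at 10 days). They also take in the bin from 21000001 to 21500000 (7 and 58). Ratios without these bins were not calculated. Not every end was rich in peaks. The first 500 kb of chromosome 12 held 3 peaks at 5 days and 2 at 10 days, and the next 500 kb held 3 and 4. The first 500 kb of chromosome 13 held none.

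In bins of 500 kb from the first base, with each peak placed by its midpoint, the 123 bins held a median of 2 peaks at 5 days (interquartile range 1 to 5, highest 18) and 9 at 10 days (6 to 15, highest 58). No 5 day peak fell in 23 bins (18.7%, against 31.8% of the 2074 bins of assigned chromosomes), and no 10 day peak in 1, the first bin of chromosome 13. The 5 day share of empty bins was 29.5% on chromosome 11, 12.2% on chromosome 12 and 13.2% on chromosome 13. The background of 31.8% includes the macrochromosomes, where 5 day peaks are sparser. Bin counts of the 2 ages had a Spearman correlation of 0.60 over the 123 bins, and of 0.61, 0.59 and 0.57 on chromosomes 11, 12 and 13. This is a description over bins of the same 2 libraries.

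**Figure D3:**
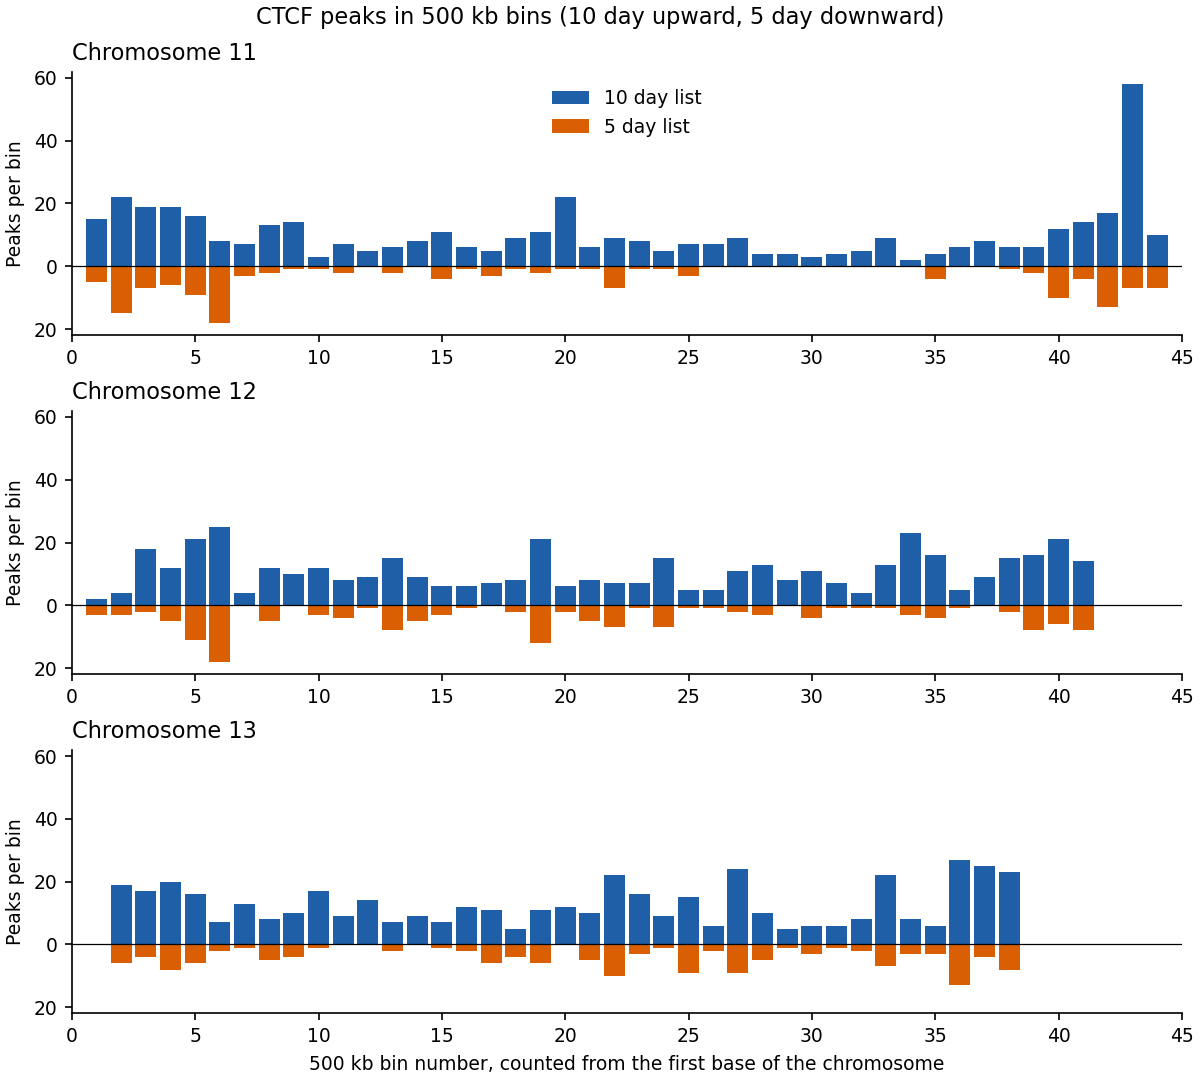
Peaks per 500 kb bin (vertical axes) along chromosomes 11, 12 and 13, by bin number from the first base (horizontal axis). Bars point up for the 10 day list and down for the 5 day list. Bin 43 of chromosome 11 reaches 58 peaks at 10 days, bin 6 reaches 18 at 5 days, and bins 26 to 34 hold no 5 day peak.

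Both lists had the same fullest bin on chromosomes 12 and 13. On chromosome 12 the bin from 2500001 to 3000000 led, with 18 peaks in the 5 day list, 9 of them shared, and 25 in the 10 day list, 10 of them shared. The bin from 9000001 to 9500000 followed at 5 days (12 peaks, and 21 at 10 days), and the bin from 16500001 to 17000000 at 10 days (23 peaks, and 3 at 5 days). On chromosome 13 the bin from 17500001 to 18000000 led, with 13 and 27 peaks. The next bin, from 18000001 to 18500000, held 25 peaks at 10 days and 4 at 5 days. The bin from 10500001 to 11000000 came second at 5 days, with 10 peaks, and held 22 at 10 days.

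Few bins departed far from the general excess of 10 day peaks. Among the 115 bins with at least 5 peaks in the 2 lists together, 4 held at least as many 5 day as 10 day peaks (3.48%, where the background was 1.66% of such bins on assigned chromosomes, 31 of 1866). They were the bins starting at 2500001 (18 and 8 peaks) and 17000001 (4 and 4) on chromosome 11 and at 1 (3 and 2) and 10500001 (7 and 7) on chromosome 12. In the opposite direction, 8 bins held at least 10 peaks at 10 days and at most 10% as many at 5 days (6.96%, where the background was 15.5%, 289 of 1866). There were 2 on chromosome 11, 2 on chromosome 12 and 4 on chromosome 13. The first share rests on 4 bins, and both backgrounds include the macrochromosomes, where 5 day peaks are sparser.

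**Figure D4:**
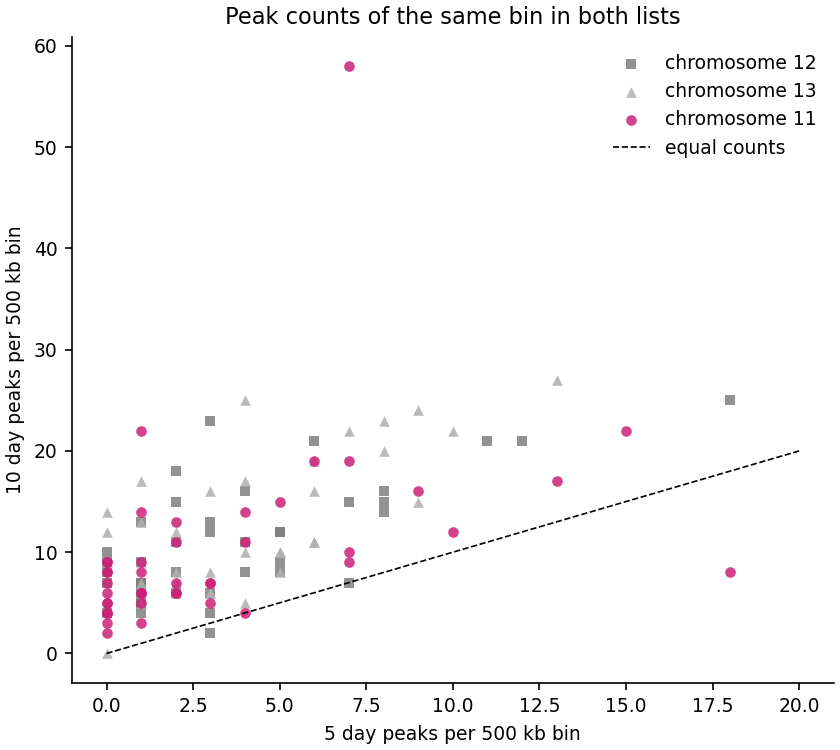
Peaks of each 500 kb bin in the 5 day list (horizontal axis) and the 10 day list (vertical axis), with chromosome 11 as circles, chromosome 12 as squares and chromosome 13 as triangles. The dashed line marks equal counts. A bin of chromosome 11 with 18 and 8 peaks lies furthest below the line, and one with 7 and 58 peaks lies furthest above it.

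On chromosome 11 the lists differed most in 2 bins, one in each direction. Bins were ranked by the share of the chromosome's 10 day peaks they held less the share of its 5 day peaks. The bin from 2500001 to 3000000 held 12.5% of the chromosome's 5 day list (18 peaks) and 1.78% of its 10 day list (8 peaks), and came first in the 5 day direction. The bin from 500001 to 1000000 followed with 15 and 22 peaks (10.4% and 4.90%), and the bin from 20500001 to 21000000 with 13 and 17 (9.03% and 3.79%). In the 10 day direction the bin from 21000001 to 21500000 came first: it held 7 peaks in the 5 day list (4.86%) and 58 in the 10 day list (12.9%). The bin from 9500001 to 10000000 held 1 and 22 peaks, and the bin from 4000001 to 4500000 held 1 and 14. The ratios of 10 day to 5 day peaks were 0.444 (0.167 to 1.07) in the first bin of the 5 day direction and 8.29 (3.78 to 21.5) in the first of the 10 day direction. These bins were chosen for their difference, so the values are a description.

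The 5 day excess in the bin from 2500001 to 3000000 came from a single tight row, which held 16 of its 18 peaks. From 2674272 to 2687838, over 13.6 kb, the 5 day list held 16 peaks with starts a median of 868 bp apart, and none of the steps between them was over 1640 bp. By number of peaks, this was the longest run of 5 day peaks less than 10 kb apart on the 3 chromosomes. Scores were 15 to 113, and 7 of the 16 were overlapped at 10 days. The 10 day list held 6 peaks in the same stretch, all shared, with a median score of 79.5 and scores from 22 to 313. The 9 unmatched 5 day peaks scored 16 to 29, and the nearest 10 day start was 576 to 1846 bp away. The stretch was thus listed at both ages, with fewer peaks at 10 days. Over the whole bin the median rank was 54.2% at 5 days and 96.9% at 10 days.

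This row ended at the edge of a long empty stretch. Its last peak, at 2687440 to 2687838, was one of the 3 highest of the chromosome at both ages. No peak of either list followed until 3189195 at 10 days and 3189204 at 5 days, where the highest 5 day peak of the chromosome stood. The 10 day peaks were thus 501 kb apart, the longest 10 day gap on the chromosome, and 2 of the 3 strongest sites of chromosome 11 flanked it. Assembly gaps were not analysed here.

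A shorter row of close peaks lay on chromosome 12, with similar numbers of peaks at both ages and not at the edge of the longest 10 day gap. From 2565819 to 2574765, over 8.95 kb, there were 9 peaks at 5 days with starts a median of 906 bp apart and 8 at 10 days a median of 1158 bp apart. Of these, 5 and 6 were shared. Scores ran from 14 to 45 at 5 days and from 23 to 112 at 10 days. The longest 10 day gap of chromosome 12, 503 kb from 2976098 to 3479416, lay further on and held no 5 day peak either. Its flanking 10 day peaks had scores of 23 and 30, above 27.0% and 77.8% of the list. On chromosome 13 the longest 10 day gap was 314 kb, and 1 peak of the 5 day list, with a score of 19, lay within it.

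The 10 day excess in the bin from 21000001 to 21500000 was built differently, from many peaks of ordinary score spread over 400 kb. Its 58 peaks at 10 days were the highest count of any 500 kb bin on the assigned chromosomes. They had a median score of 25, a median spacing of 5.19 kb, and 4 of them were shared. From 21100001 to 21500000 there were 49 peaks at 10 days and 1 at 5 days, and none was shared. Over the whole 10 day list 15.8% were shared, and with 1 peak at 5 days few could be shared here. In successive windows of 100 kb the 10 day list held 12, 8, 16 and 13 peaks. Scores of these 49 ran from 22 to 38 with a median of 25, which is the median of the 10 day list, and 9 stood at its lowest score of 22. The 5 day peak there had a score of 13, the lowest of its list. All shared peaks of the bin lay in its first 100 kb, 4 of the 6 peaks there at 5 days and 4 of the 9 at 10 days, and so did its highest 10 day score, of 132.

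**Figure D5:**
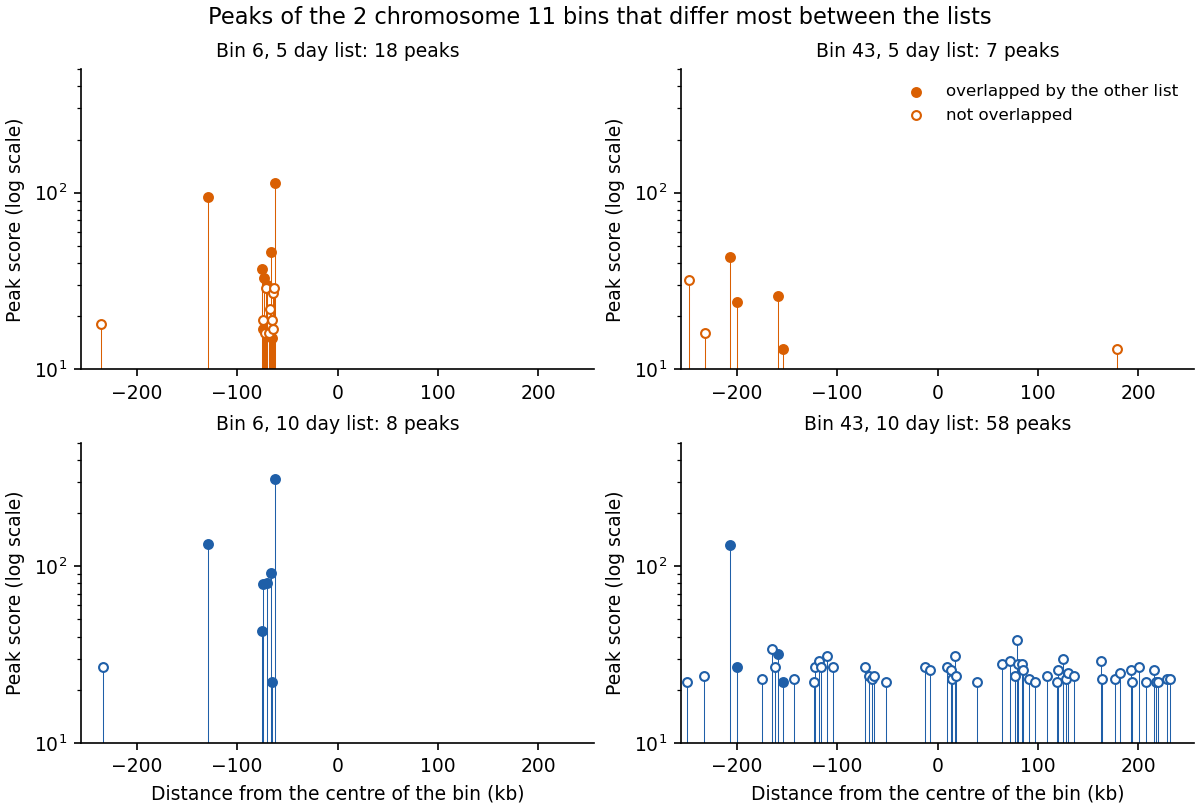
Peaks of bin 6 (left) and bin 43 (right) of chromosome 11 in the 5 day list (top) and the 10 day list (bottom), by distance from the centre of the bin (horizontal axis, kb) and score (vertical axis, log scale). Filled points are overlapped by the other list. In bin 6 the peaks form a tight row at both ages, and in bin 43 the 58 peaks at 10 days spread across the bin, with scores of 22 to 38 apart from the one at 132.

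In the 10 day list shortened to 5830 peaks, the bin from 21000001 to 21500000 retained 10 of its 58 peaks, beside 7 at 5 days. The bin from 9500001 to 10000000 retained 9 of its 22, beside 1. The larger excess of 10 day peaks was then in the bin from 9500001 to 10000000. In the bin from 9500001 to 10000000 none of the 22 peaks at 10 days was shared, against 15.8% of the whole 10 day list. The bin was chosen for its difference and held 1 peak at 5 days, so few could be shared. The median score of the 22 peaks was 27 and the highest 45, that of the highest unmatched 10 day peak of the chromosome. The bin from 4000001 to 4500000 kept 1 of its 14 peaks in the shortened list. In that bin 1 peak of each list was shared, and 10 day scores reached 31.

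Chromosome 11 also had a long stretch without any 5 day peak. From 12500001 to 17000000, 9 consecutive bins held no 5 day peak and 47 at 10 days, between 2 and 9 in each bin. The 10 day list was also thin there, with a mean of 5.22 peaks per bin. Over all bins of chromosome 11, these included, the 10 day median was 8 peaks per bin (interquartile range 5.75 to 12.25). The 5 day peaks on either side were 4758 kb apart, from 12348608 to 17106156. The 47 peaks at 10 days scored 22 to 35 with a median of 24, and 10 of them stood at the lowest score. On assigned chromosomes there were 4 runs of at least 9 such bins, of which this was the only one on chromosomes 11 to 28. The longest run was 5 bins on chromosomes 6 to 10 and 4 bins on chromosomes 14 to 28. On chromosome 13 the longest distance between 5 day peaks was 1929 kb, from 4512117 to 6441416, with 45 peaks at 10 days, none scoring above 36. On chromosome 12 it was 972 kb, with 13 peaks at 10 days.

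Neighbouring starts on the 3 chromosomes lay a median of 50.7 kb apart at 5 days (interquartile range 16.9 to 145) and 24.5 kb at 10 days (7.93 to 56.9). Over all assigned chromosomes the medians were 64.8 and 29.7 kb. The 5 day median was 40.5 kb on chromosome 11, 52.1 kb on chromosome 12 and 60.3 kb on chromosome 13, so the chromosome with the lowest density had the shortest median spacing. At 10 days the medians were 24.6, 25.8 and 23.6 kb. Neighbours less than 10 kb apart made up 24.5% of the 5 day spacings on chromosome 11, 19.0% on chromosome 12 and 13.7% on chromosome 13, and 15.9% over all assigned chromosomes. At 10 days they made up 30.4%, 27.7% and 28.2%, and 24.0% over all assigned chromosomes. On chromosome 11 there were 35 such spacings at 5 days, and they include every step of the row of 16 peaks from 2674272 to 2687838. That single row thus adds to the 24.5% and lowers the 5 day median spacing of the chromosome. Values without it were not calculated.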

How the data were processed

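Per the labels' protocols, DNA recovered with the CTCF antibody was sequenced on the Illumina Genome Analyzer. The authors deposited 1 headerless peak list per library with a score for each peak. Not given in the sources used here are the aligner, the peak caller and its threshold, an input library, the genome build and whether the lists were called separately. Groups come from the age label. The regions and every description of them were chosen with earlier results of these data known.

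Peaks were counted, overlapped (at least 1 bp) and ranked by score within their own list. Lengths run from the first base to the last peak end in either list, so densities are upper limits for the full length of the sequence. Assembly gaps were not taken out of the length. From the first peak start to the last peak end the densities were 7.34 per Mb at 5 days and 22.6 at 10 days. Bins are 500 kb from base 0. Intervals are 95% (Clopper-Pearson, exact Poisson or exact conditional binomial) and treat peaks as independent. Named regions are, per chromosome, the 3 highest peaks and 2 highest unmatched peaks of each list, the 2 fullest bins at each age and the longest gap of each list, plus the 3 chromosome 11 bins with the largest difference of shares in each direction. Runs of close peaks, runs of empty bins, and the other bins and windows described, were chosen after their values were seen. The functions were tested on simulated data. Tools were scipy 1.17.1, pandas 2.3.3, numpy 2.4.6 and matplotlib 3.10.9 under Python 3.11.15.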

Additional observations from a re-analysis of the deposited data

How the results depend on the processing

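A value was taken to hold when it stayed inside the main interval, and a count of bins when it changed by at most 1.5 times. Widening peaks by 500 bp on each side gave shared shares of 59.3% at 5 days and 19.0% at 10 days. In the upper 50% of the scores they were 70.8% and 21.9%, and the 10 day density ratio to chromosomes 6 to 10 was 1.29. That last value depends on ties at the limit, which were kept in order of chromosome name: leaving out the tied score, a choice made after seeing the data, gave 1.12 (1.02 to 1.23). The upper 50% of the 10 day list kept 10679 peaks, of which 9491 scored above the tied score. The shared shares of 70.8% and 21.9% rest on the same tied peaks and were not recalculated without them. At equal list length the shares were 40.0% and 45.4%, the ratio of 10 day to 5 day peaks 0.861, and the 10 day density ratios 1.14 to chromosomes 6 to 10 and 0.643 to chromosomes 15 to 21, with or without the tied score. The cause of these changes was not tested. Bins of 1 Mb gave 2 bins with at least as many 5 day as 10 day peaks, out of 62 tested in place of 115. The other 52 of 65 alternatives stayed within these limits. They include leaving out any 1 chromosome and, chosen after seeing the data, leaving out the most divergent bin of chromosome 11 in either direction. Among them, bins shifted by 250 kb gave 6 bins with at least as many 5 day as 10 day peaks, out of 118 tested. That change lies exactly at the limit. Without chromosome 11, however, the 10 day density ratio to chromosomes 6 to 10 was 1.11 (1.03 to 1.20), which no longer includes equal density. Without chromosome 12 that ratio was 1.07 (0.996 to 1.15) and without chromosome 13 it was 1.01 (0.934 to 1.08), and both intervals include it. No paired analysis was possible because there is a single library at each age; leaving one out would leave nothing to compare. Unknown depth and the missing input limit any statement on absence from a list.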
